A study of Mus musculus with 51 samples.

Results

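The *Wnt* ligand genes *Wnt2b*, *Wnt3*, *Wnt3a*, *Wnt4*, *Wnt5a*, *Wnt5b*, *Wnt6*, *Wnt7b*, *Wnt8a* and *Wnt11* were followed by name through every expression table of a study in which Bmp4 drove mouse embryonic stem cells (mESCs) towards cardiac mesoderm. They are 10 of the 24538 genes in the tables and 10 of the 19 *Wnt* genes, and all 10 were present in all 9 tables. In at least 1 of 14 conditions 9 of the 10 exceeded an FPKM of 1, a unit that counts sequenced fragments per kilobase of transcript after scaling to the size of the library. The exception, *Wnt2b*, a ligand known from lung and limb development, did not pass 0.385 in any condition.

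RNA was sequenced from 18 samples. F1G4 wild-type (WT) cells were taken as ES cell aggregates before Bmp4 was added and after 1, 2 and 3 days in 20 ng/ml Bmp4, with 2 samples per stage by their labels. An *Eomes* knockout (KO), a *T* KO and an *Eomes*/*T* double KO (dKO) line, all derived from F1G4, were taken on days 2 and 3 of the same treatment, 1 sample for each line and day. The single KOs were made by double-nicking CRISPR removal of the promoter and the first exon, and the dKO was made from the *Eomes* KO line. *Smad4* KO cells, obtained by Cre deletion of the floxed exon 1 in conditional mESCs of mixed 129S/SvEv and C57BL/6 background, were taken along with their own WT cells after 1 and 2 days of Bmp4, 1 sample each. Each line was grown from picked colonies, so that a difference between genotypes cannot be told apart from a difference between lines. For each gene and condition the tables hold 1 FPKM value, described by the study's legends as an average of 2 replicates, so no difference below has a replicate check, an SD or a p-value. The sequencing depth and the precision it gives are unknown.

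WNT proteins are secreted, lipid-modified ligands that bind Frizzled receptors. Some of them, with Lrp5 or Lrp6 as co-receptor, stabilise β-catenin, which enters the nucleus and activates target genes through TCF/LEF factors, while others signal through Ror receptors and the cytoskeleton without β-catenin. In the mouse gastrula the β-catenin branch is needed for the primitive streak, and *T*, which like *Eomes* encodes a T-box transcription factor of the streak and nascent mesoderm, is among its target genes.

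The labels were checked on the targeted genes and on cell type markers. *Eomes* FPKM was 2.42 in *Eomes* KO against 9.42 in WT cells on day 2, and 0.276 against 20.3 on day 3. *T* FPKM was 6.64 in *T* KO against 44.8 in WT cells on day 2, and 3.00 against 323 on day 3. In the dKO both genes were lower than in WT cells on both days, *Eomes* at 1.24 and 0.346 and *T* at 2.77 and 1.93. *Smad4* FPKM was not lower in *Smad4* KO than in WT cells (39.4 against 33.8 on day 1, 46.8 against 39.3 on day 2), but the value covers the whole gene and the deletion only exon 1, so it does not check the label. The WT cells on day 3 held *T* at 320 and the early cardiac mesoderm factor *Hand1* at 20.5, while 5 of 7 lateral and cardiac mesoderm markers, *Nkx2-5* and *Tbx5* among them, stayed at or below 1 at every F1G4 WT stage and the pluripotency factor *Pou5f1* was still at 465. The 7 feeder fibroblast markers summed to 0.600 to 5.36 over the 14 conditions.

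Upstream sequence is shown for 4 of the ligands, of which *Wnt3*, *Wnt3a* and *Wnt5b* were lower and *Wnt4* was higher in dKO than in WT cells on day 3. *Wnt11* was higher there as well (log2 1.55), but its sequence is not shown and only its element matches are given below. The sequence comes from the RefSeq promoter table for GRCm38.p6, which matched 7 of the 10 ligands with 10 start sites. It gave no entry for *Wnt5a*, *Wnt7b* and *Wnt8a*. *Wnt3* lies on the + strand at chr11:103774175-103818021, *Wnt3a* on the − strand at chr11:59248036-59290751, *Wnt5b* on the − strand at chr6:119432531-119544824 and *Wnt4* on the + strand at chr4:137277635-137299501. The lines below read 5′ to 3′ on the gene's strand and end at the base before the start site, except for *Wnt3*, where 131 bases are given (chr11:103773925-103774055) because an exon of a predicted *Wnt9b* model on the opposite strand covers the rest. The stretch of *Wnt5b* (chr6:119449387-119449636) lies before one of its 3 listed start sites, the only one with CTTTGA in its window. The deposited values do not tell which of the start sites was in use. Those of *Wnt3a* and *Wnt4* are chr11:59290752-59291001 and chr4:137277385-137277634. Capitals mark GGCGCC, a GC-rich element that Smad proteins bind, in *Wnt3a* and *Wnt4*, and CTTTGA, the core of the TCF/LEF element, in *Wnt5b*.
Wnt3: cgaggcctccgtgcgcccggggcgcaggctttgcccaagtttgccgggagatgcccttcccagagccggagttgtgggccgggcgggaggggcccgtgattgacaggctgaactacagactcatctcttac
Wnt3a: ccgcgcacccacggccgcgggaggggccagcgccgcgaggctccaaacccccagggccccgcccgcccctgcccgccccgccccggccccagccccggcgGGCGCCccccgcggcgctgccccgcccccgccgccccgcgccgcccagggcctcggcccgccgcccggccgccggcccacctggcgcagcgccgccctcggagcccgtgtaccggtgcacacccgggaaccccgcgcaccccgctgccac
Wnt5b: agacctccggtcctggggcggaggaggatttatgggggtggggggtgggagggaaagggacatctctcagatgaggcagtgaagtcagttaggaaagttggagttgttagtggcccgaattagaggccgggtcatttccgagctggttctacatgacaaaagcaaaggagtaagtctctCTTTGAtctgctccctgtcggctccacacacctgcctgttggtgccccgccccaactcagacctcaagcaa
Wnt4: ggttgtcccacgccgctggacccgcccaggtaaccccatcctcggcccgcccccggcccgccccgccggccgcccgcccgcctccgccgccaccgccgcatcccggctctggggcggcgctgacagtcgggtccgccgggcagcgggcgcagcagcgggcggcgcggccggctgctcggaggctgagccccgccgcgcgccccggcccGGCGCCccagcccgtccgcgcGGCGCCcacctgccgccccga

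A set of 4 short elements was searched, each on its own, on both strands of the 250 bases upstream of each of the 10 ligand start sites. The T-box element TCACACC was in none of the 10, and in 3.33% of 32851 RefSeq promoters of the same length. CTTTGA was in 1 site each of *Wnt5b* and *Wnt11*, against 13.8% of all promoters. GGCGCC was upstream of *Wnt3a*, *Wnt4*, *Wnt2b* and *Wnt11*, against 9.59% of all promoters, and the GC content of these windows was high, at 87.6% for *Wnt3a* and 85.2% for *Wnt4* against a median of 52.4% over all promoters. AATCCAC, an element of the Nodal-pathway factor FOXH1, was before start site 2 of *Wnt11* and in 2.1% of promoters. These are matches of letters and not binding sites.

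In WT cells the ligands came up in sequence over the 3 days. A gene was called higher or lower by the study's rule, which asks for an FPKM above 1 in either group and a log2 ratio above 1 or below −1, that is a change of more than 2-fold, with no pseudocount. From ES cells to day 1, 2 of the 10 were called higher (*Wnt3* with a log2 ratio of 4.96 and *Wnt5b* with 2.90) and 1 lower (*Wnt7b*, −2.64), where 7.7% of all 11028 genes tested were higher and 5.84% lower. From day 1 to day 2, 6 were higher and none lower (7.18% and 4.13% of all genes), and from day 2 to day 3 again 6 were higher and none lower (6.14% and 4.06%). Between ES cells and day 3 directly, 7 were higher and none lower (18.5% and 12.6%). The ligands above FPKM 1 in either group, which alone could be called, numbered 3, 6, 8 and 8 in these comparisons. With a pseudocount of 0.1, which lets genes at 0 be included, the median log2 ratio of all 10 was 0.69, 2.28 and 1.12 at the 3 steps, against −0.05, 0.00 and 0.01 over all genes tested. As these are bulk samples, more cells with a transcript and more transcript per cell cannot be told apart here or in any comparison that follows.

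**Figure D1:**
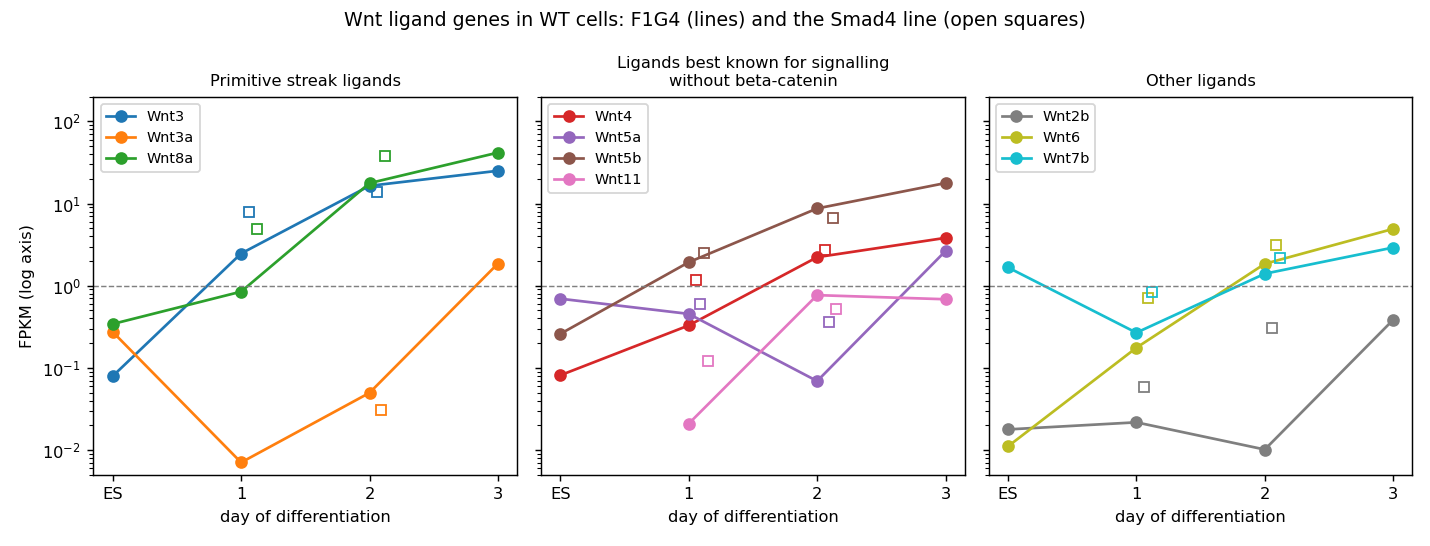
FPKM of the 10 *Wnt* ligand genes (log axis) by day of differentiation in F1G4 WT cells (filled points and lines, 1 deposited value per stage) and in WT cells of the *Smad4* line (open squares on days 1 and 2, separately normalized tables). The dashed line is FPKM 1, and values of 0 are not drawn. *Wnt3*, *Wnt8a* and *Wnt5b* reached 25.0, 41.7 and 17.8 on day 3, while *Wnt3a* and *Wnt5a* passed 1 only at that stage.

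Among the streak ligands that act through β-catenin, *Wnt3*, which the mouse embryo needs to form a streak, led on day 1 and *Wnt8a*, a ligand of the posterior epiblast and streak, overtook it later. *Wnt3* FPKM started at 0.0794 and was 2.47, 16.4 and 25.0 on the 3 days. *Wnt8a* FPKM was 0.342, 0.847, 17.7 and 41.7 at the same stages. The ratio of *Wnt3* to the day before was past the threshold until day 2 (log2 2.74) and not on day 3 (0.61), whereas that of *Wnt8a* was past it on days 2 (4.39) and 3 (1.23). *Wnt3a*, a ligand of the late streak and tailbud that is needed for somite-forming mesoderm, had FPKM values of 0.274, 0.00706, 0.0497 and 1.86. It was thus near 0 until day 2 and was called higher only at the last step (log2 5.23), from a value near 0, so that the size of the ratio is uncertain.

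The ligands best known for signalling without β-catenin had separate courses. *Wnt5b* FPKM was 0.259, 1.93, 8.71 and 17.8 at the 4 stages, a rise of more than 2-fold at every step (the last with a log2 ratio of 1.03). Its close paralogue *Wnt5a*, which acts through Ror2 in the elongation of the body axis and limbs, had FPKM values of 0.695, 0.454, 0.0691 and 2.65. *Wnt4*, known for its part in kidney tubule and ovary development, had 0.0813, 0.329, 2.22 and 3.82. So *Wnt5a* was at its lowest on day 2, when *Wnt4* and *Wnt5b* were already above 1, and it rose only on day 3 (log2 5.26). *Wnt11*, which acts in convergent extension and in heart development, was listed at 0 in ES cells and stood at 0.0210, 0.768 and 0.684 on the 3 days.

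Of the remaining ligands, *Wnt7b*, a ligand of lung and kidney development, was the most abundant of all 10 in ES cells. Its FPKM was 1.67 before Bmp4 and 0.268, 1.40 and 2.91 on the 3 days, which makes it the only one of the 10 called both lower and higher within the time course. *Wnt6*, a ligand known from surface ectoderm, had FPKM values of 0.0111, 0.176, 1.85 and 4.91 and was called higher at both later steps (log2 3.39 and 1.41). *Wnt2b* stood at 0.0178, 0.0217, 0.0101 and 0.385. On day 3 the order of the levels in WT cells was *Wnt8a*, *Wnt3*, *Wnt5b*, *Wnt6*, *Wnt4*, *Wnt7b*, *Wnt5a*, *Wnt3a*, *Wnt11* and *Wnt2b*. Whether neighbours in that order differ beyond replicate spread cannot be said without replicate values.

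As FPKM is per length, the levels of the 10 genes can be added. The sum was 3.43 in WT cells before Bmp4 and 6.52, 49.2 and 102 on the 3 days. *Wnt7b* made up 48.7% of it in ES cells, *Wnt3* 37.8% on day 1 and *Wnt8a* 36.0% on day 2 and 41.0% on day 3. A different ligand therefore led in ES cells, on day 1 and from day 2. *Wnt3* and *Wnt8a* together made up 50.8% on day 1, 69.4% on day 2 and 65.6% on day 3, and more than 50% in 11 of the 14 conditions. The conditions below that were the ES cells (12.3%) and *Smad4* KO cells on day 1 (32.8%) and day 2 (29.4%).

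**Figure D2:**
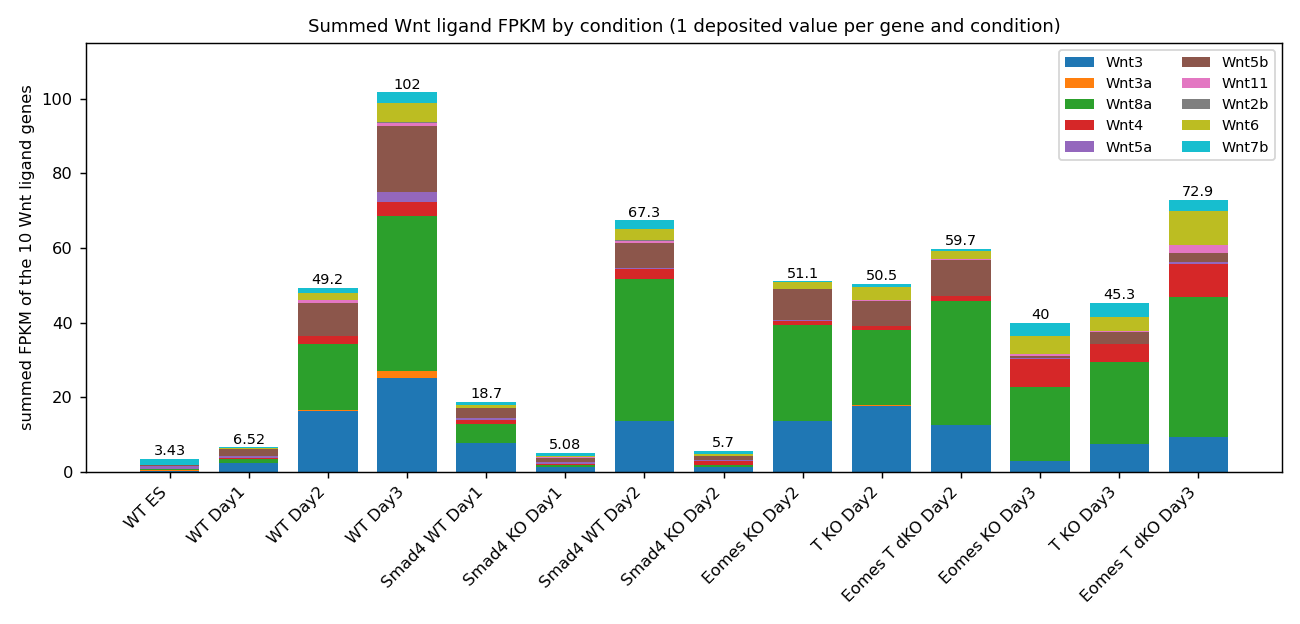
Stacked bars of FPKM (linear axis from 0) of the 10 *Wnt* ligand genes in the 14 conditions, with the sum above each bar. KO values of the F1G4 lines are scaled to the WT time course, and the *Smad4* line tables were normalized separately. The sum was 102 in WT cells on day 3 and between 40.0 and 72.9 in the 3 KO lines on that day, and below 6 in *Smad4* KO cells.

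*Smad4* encodes the common partner of the Smads activated by BMP and by Nodal, and the comparison of *Smad4* KO with WT cells of the same line asks which genes need them. On day 1, 4 of the 10 ligands were called lower in KO and none higher, against 2.41% of 11232 genes lower and 2.36% higher. On day 2, 6 were lower and none higher, against 3.21% and 2.56% of 10999 genes. The ligands above FPKM 1 in either group numbered 4 on day 1 and 6 on day 2. With a pseudocount of 0.1 the median log2 ratio of all 10 was −0.81 on day 1 and −2.01 on day 2, against 0.00 and −0.01 over all genes tested. The summed FPKM of the 10 on day 1 was 18.7 in WT and 5.08 in the KO, and on day 2 it was 67.3 and 5.70, a KO to WT fold of 0.271 and 0.0846.

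The streak ligands had the lowest ratios of those called. *Wnt8a* FPKM on day 1 was 4.85 in WT and 0.441 in the KO (log2 −3.46) and 37.8 and 0.419 on day 2 (log2 −6.50). *Wnt3* FPKM was 7.83 and 1.22 on day 1 (log2 −2.68) and 13.7 and 1.25 on day 2 (log2 −3.45). In the KO both thus stood at nearly the same level on the 2 days, while in the WT cells of the line, across separately normalized tables, the day 2 to day 1 log2 ratio was 2.96 for *Wnt8a* and 0.81 for *Wnt3*. *Wnt3a* was not above 0.107 in any of the 4 samples. Of the genes best known for signalling without β-catenin, *Wnt5b* FPKM on day 1 was 2.53 in WT and 1.20 in the KO (log2 −1.08). On day 2 *Wnt5b* was at 6.60 and 0.882 (log2 −2.90). *Wnt4* had the smallest difference of those called on day 2, with 2.73 and 1.23 (log2 −1.15), after 1.17 and 0.361 on day 1 (log2 −1.70). Of the ligands above 1 in KO cells, *Wnt4* alone was higher by more than 2-fold on day 2 than on day 1 (log2 1.77). *Wnt6*, at 3.09 in WT and 0.630 in the KO (log2 −2.29), and *Wnt7b*, at 2.20 and 0.930 (log2 −1.24), were called lower on day 2. *Wnt5a*, *Wnt11* and *Wnt2b* stayed low in all 4 samples, the highest value being 0.601. With a pseudocount of 1 the calls of *Wnt4* on both days, of *Wnt5b* on day 1 and of *Wnt7b* on day 2 were lost.

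The day 1 result depended on which WT cells were the reference. On day 1 the WT cells of the *Smad4* line already held more *Wnt* transcript than F1G4 WT cells, with log2 ratios of 1.72 for *Wnt3*, 2.57 for *Wnt8a* and 1.89 for *Wnt4* after both columns were scaled to a common median. Of all genes with a mean FPKM of 1 to 3, where *Wnt8a* lies on day 1, 20.6% differed by more than 2-fold between these WT columns on that day, and of those at 3 to 10, where *Wnt3* lies, 9.78% did. The mean of *Wnt4* was below 1. On day 2 both *Wnt3* and *Wnt8a* lie at 10 to 50, where 1.62% of genes differed that much. Against F1G4 WT cells none of the 4 ligands was called lower on day 1 (log2 −0.96 for *Wnt3*, −0.89 for *Wnt8a*, −0.64 for *Wnt5b* and 0.19 for *Wnt4*). On day 2 the WT cells of the 2 lines were closer (log2 −0.25 for *Wnt3*, −0.39 for *Wnt5b*, 1.11 for *Wnt8a*), and against F1G4 WT cells *Wnt3* (−3.69), *Wnt8a* (−5.38), *Wnt5b* (−3.28) and *Wnt6* (−1.53) were called lower, and *Wnt4* (−0.83) and *Wnt7b* (−0.56) were not. Cell type markers differed as well. The neural markers *Sox1* and *Pax6* had a sum of 1.16 in WT and 7.27 in KO on day 1 and of 0.680 and 14.0 on day 2, the 5 nascent mesoderm markers one of 5.64 and 1.91 on day 1 and of 72.4 and 2.83 on day 2, and the 3 trophoblast markers one of 3.11 and 0.470 and then of 1.51 and 0.181. Their part in the ligand values was not tested.

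**Figure D3:**
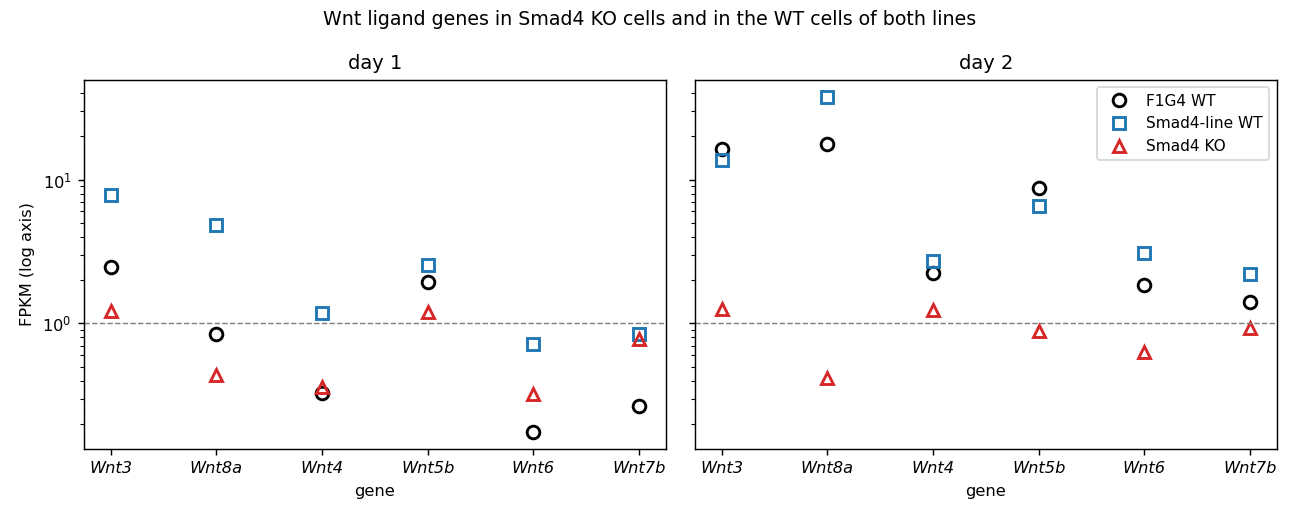
FPKM (log axis) of 6 *Wnt* ligand genes on days 1 and 2 in F1G4 WT cells (circles), WT cells of the *Smad4* line (squares) and *Smad4* KO cells (triangles), 1 deposited value each, from separately normalized tables. On day 1 *Wnt3* stood at 2.47, 7.83 and 1.22 in the 3 samples, and on day 2 at 16.4, 13.7 and 1.25, so the KO stood apart from both WT columns for *Wnt3*, *Wnt8a* and *Wnt5b* on day 2.

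The *Eomes* KO, *T* KO and dKO comparisons set each of these lines against F1G4 WT cells of the same day. All 3 use the same F1G4 WT columns of a day, so they are not independent of each other, and KO levels are given here after division by the factor (0.989 to 1.04) by which the WT column of their table differed from the time course. On day 2 few ligands differed. In *Eomes* KO 2 of the 10 were called lower (*Wnt4* and *Wnt7b*) and none higher, against 4.17% and 3.35% of 11226 genes. In *T* KO 1 was lower (*Wnt4*) and none higher, where 9.93% of 11359 genes were lower and 5.7% higher. In dKO 1 was lower (*Wnt7b*) and none higher, against 4.5% and 3.48% of 11195 genes. The ligands above FPKM 1 in either group, which alone could be called, numbered 6 in each of these comparisons. A count of 1 of 6 is too small to be set above or below the share over all genes. The summed FPKM of the 10 ligands was 1.04, 1.03 and 1.21 times that of WT cells.

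On day 3, 5 ligands were lower in *Eomes* KO and none higher (9.01% and 7.39% of 11629 genes). In *T* KO 4 were lower and none higher (3.92% and 2.12% of 11239 genes), and in dKO 4 were lower and 2 higher (5.53% and 5.51% of 11473 genes). The ligands above FPKM 1 in either group numbered 8, 8 and 9. Those lower were *Wnt3*, *Wnt3a*, *Wnt5a*, *Wnt5b* and *Wnt8a* in *Eomes* KO, and the first 4 of them in *T* KO and in dKO, each set against the same WT column. With a pseudocount of 0.1 the median log2 ratio of all 10 was −1.23, −1.07 and −0.53, against −0.04, −0.01 and −0.03 over all genes tested. The summed FPKM of the ligands was 0.394, 0.445 and 0.717 times that of WT cells in the *Eomes* KO, the *T* KO and the dKO. As deposited, the sum was thus lowest in the *Eomes* KO and nearest to WT in the dKO, in which both genes are targeted. The order of the *Eomes* KO and the *T* KO depended on the scale. Rescaling the columns of a table to equal sums moved the median log2 ratio of all genes tested from −0.04 to 0.27 in *Eomes* KO. In *T* KO it moved from −0.01 to −0.07.

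**Figure D4:**
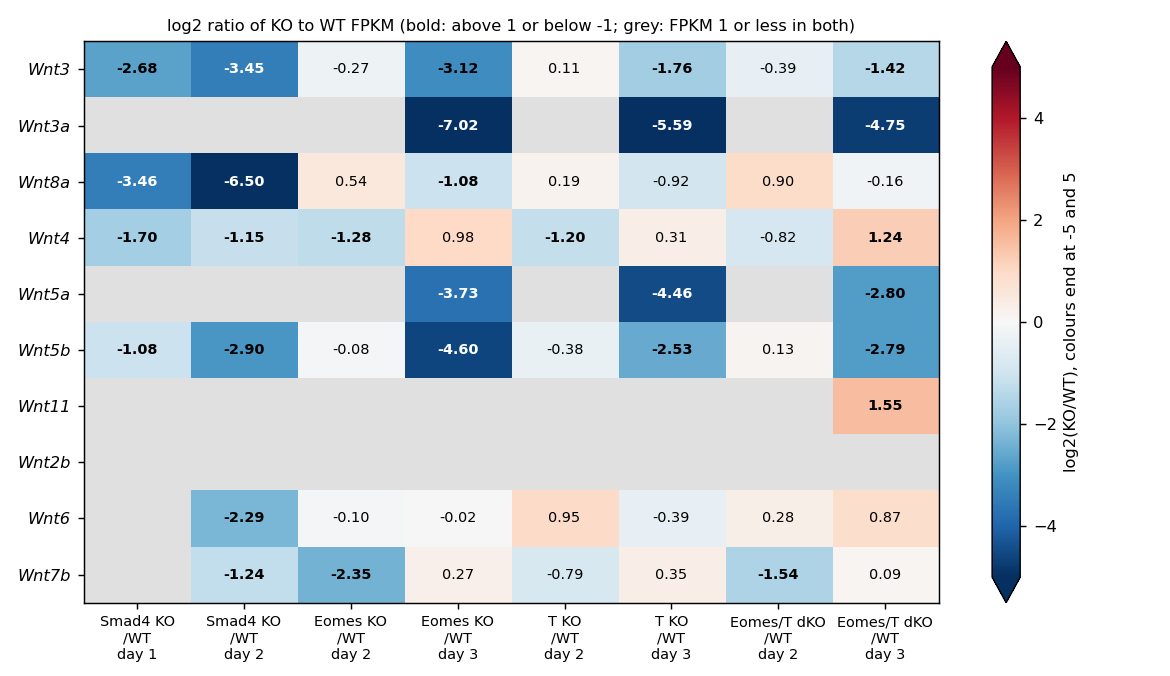
The log2 ratio of KO to WT FPKM of each *Wnt* ligand gene (rows) in the 8 comparisons (columns), with the value printed, in bold where it is above 1 or below −1. Grey cells have an FPKM of 1 or less in both groups. The *Smad4* KO columns hold no called value above 0, and *Wnt4* and *Wnt11* in dKO on day 3 (1.24 and 1.55) are the only called values above 0.

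*Wnt3* stayed near its WT level on day 2 and was lower on day 3. On day 2 its FPKM was 16.4 in WT, 13.6 in *Eomes* KO, 17.7 in *T* KO and 12.5 in dKO cells (log2 −0.27, 0.11 and −0.39). On day 3 it was 25.0 in WT, 2.87 in *Eomes* KO, 7.40 in *T* KO and 9.35 in dKO cells (log2 −3.12, −1.76 and −1.42). From day 2 to day 3 *Wnt3* rose in none of the KO lines, and its day 3 to day 2 log2 ratio was −2.24 in *Eomes* KO, −1.26 in *T* KO and −0.42 in dKO. *Wnt8a* differed less. Its day 2 FPKM was 17.7 in WT, 25.8 in *Eomes* KO, 20.2 in *T* KO and 33.2 in dKO cells, and its day 3 FPKM was 41.7, 19.8, 22.1 and 37.3. It was called lower only in *Eomes* KO on day 3 (log2 −1.08), with −0.92 in *T* KO and −0.16 in dKO, and it was the most abundant of the 10 ligands in all 6 samples of these lines. After the columns of a table were rescaled to equal sums (TPM scale), the *Eomes* KO ratio was −0.79 and the call was lost. *Wnt3a*, at 0.0142, 0.0385 and 0.0691 on day 3 in the 3 lines against 1.86 in WT cells (log2 −7.02, −5.59 and −4.75), did not show the WT onset, and the size of these ratios rests on values near 0.

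*Wnt5b* and *Wnt5a* showed the largest differences outside the streak ligands. On day 2 *Wnt5b* FPKM was 8.71 in WT and 8.23, 6.70 and 9.54 in the *Eomes* KO, the *T* KO and the dKO, a range that left none of them 2-fold apart from WT. On day 3 it was 17.8 in WT and 0.731, 3.07 and 2.56 in the KO lines (log2 −4.60, −2.53 and −2.79), so that it was also below the day 2 level of the same line by a log2 ratio of −3.49, −1.13 and −1.90. *Wnt5a* FPKM on day 3 was 2.65 in WT and 0.200, 0.120 and 0.380 in the KO lines (log2 −3.73, −4.46 and −2.80). In these lines it stayed below 1 on both days, whereas WT cells passed 1 on day 3.

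*Wnt4* had a different course. On day 2 its FPKM was 2.22 in WT and 0.913, 0.967 and 1.26 in the *Eomes* KO, the *T* KO and the dKO (log2 −1.28, −1.20 and −0.82). On day 3 it was 3.82 in WT and 7.52, 4.74 and 9.01 in the KO lines (log2 0.98, 0.31 and 1.24). The WT value was the highest of the 4 on day 2 and the lowest on day 3. The day 3 to day 2 log2 ratio was 0.78 in WT cells and 3.04, 2.30 and 2.84 in the KO lines. The calls rest on low values, as both day 2 calls were lost with a pseudocount of 1 (log2 −0.75 and −0.72). The *Eomes* KO value on day 3 passed the threshold when columns were rescaled to equal sums (1.26) or to a median ratio of 1 (1.04).

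**Figure D5:**
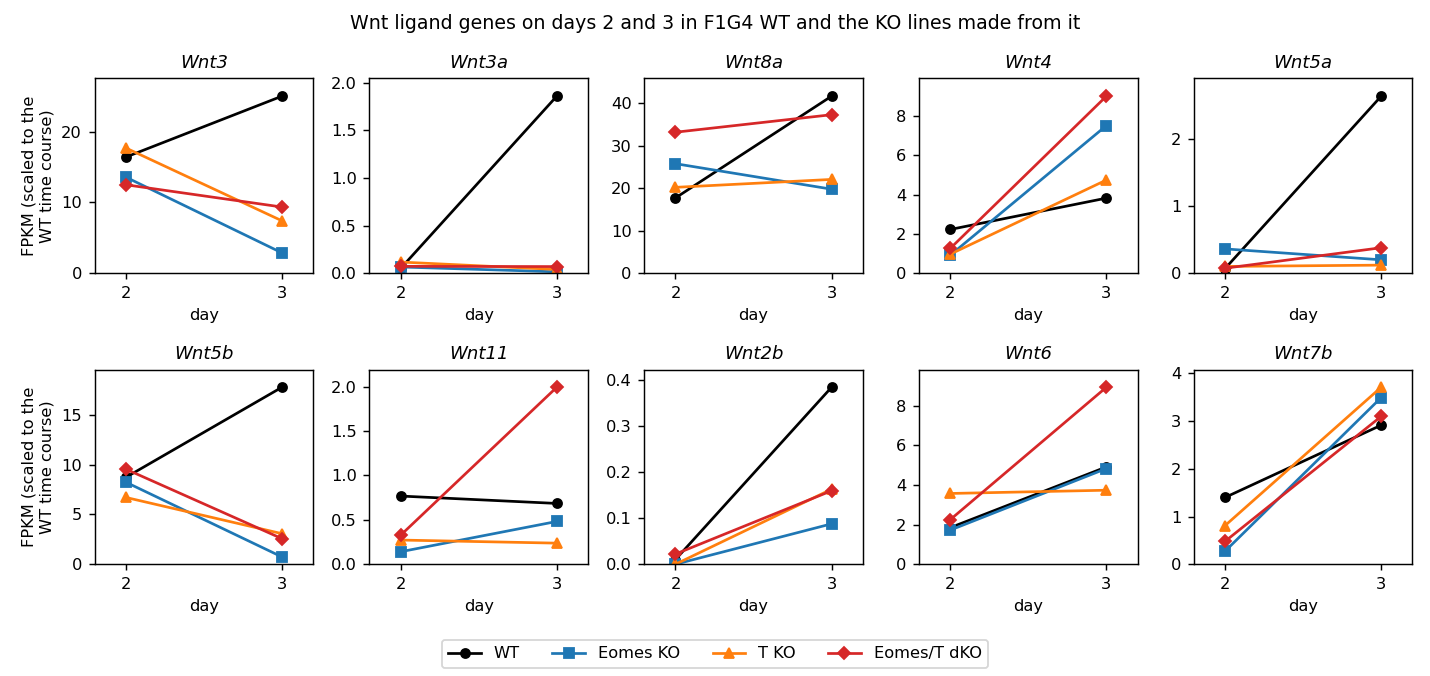
FPKM (linear axes from 0, scaled to the WT time course) of each *Wnt* ligand gene on days 2 and 3 in F1G4 WT cells and the 3 KO lines made from them, 1 deposited value per point. *Wnt3* and *Wnt5b* go up only in WT cells, and *Wnt4* goes up most steeply in the KO lines, to 9.01 in dKO against 3.82 in WT cells.

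*Wnt11* passed FPKM 1 in only 1 of the 14 conditions, dKO cells on day 3, where it stood at 1.99 against 0.684 in WT, 0.482 in *Eomes* KO and 0.237 in *T* KO cells (dKO log2 1.55, or 0.85 with a pseudocount of 1). *Wnt6* on day 3 was 4.91 in WT, 4.83 in *Eomes* KO, 3.74 in *T* KO and 8.94 in dKO cells, and its largest ratios were 0.95 in *T* KO on day 2 and 0.87 in dKO on day 3, neither of them called. *Wnt7b* on day 2 was 1.40 in WT and 0.273, 0.810 and 0.480 in the *Eomes* KO, the *T* KO and the dKO (log2 −2.35, −0.79 and −1.54). On day 3 it was 2.91 in WT and 3.49, 3.71 and 3.10 in the KO lines, so that the low day 2 values were not seen again a day later. The 2 *Wnt7b* calls were also lost with a pseudocount of 1. *Wnt2b* stood highest at 0.163 among the KO samples of these lines.

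These differences came with differences in cell type markers. On day 3 the 5 nascent mesoderm markers, which include *T* and *Eomes* themselves, summed to 416 in WT cells. They summed to 5.74, 24.5 and 12.4 in the *Eomes* KO, the *T* KO and the dKO. The lateral and cardiac mesoderm markers went both ways. *Hand1* was at 20.5 in WT and 60.2, 29.3 and 31.0 in the KO lines, and *Foxf1* at 0.716 and 1.47, 0.884 and 1.63. *Isl1* was at 1.31 in WT and 0.450, 0.178 and 0.113 in the KO lines. *Gata4* and *Kdr*, below 1 throughout, were also lower in the KO lines, and *Nkx2-5* and *Tbx5* were near 0. The neural markers *Sox1* and *Pax6* summed to 0.303 in WT and 11.8, 4.65 and 9.50 in the KO lines on day 2, and to 0.239, 6.17, 1.04 and 10.1 on day 3. The pluripotency markers summed to 904 in WT and 1007, 792 and 1208 in the KO lines on day 2. On day 3 they summed to 617, 366, 460 and 586, of which *Pou5f1* alone made up 465, 242, 308 and 424. On that day *Nanog* was also lower in the KO lines than in WT cells. *Sox2* (20.4 in WT and 33.7, 39.2 and 34.5 in the KO lines), *Zfp42* and *Esrrb* were higher. The 3 trophoblast markers summed to 1.36 in WT and 4.79, 4.30 and 4.63 in the KO lines on day 2. On day 3 they summed to 7.84 in WT and 0.883, 1.42 and 2.26 in the KO lines. These differences were mostly those of *Cdx2*, which is also among the β-catenin targets below. *Cdx2* alone was at 0.617 in WT and 3.69, 3.65 and 3.70 in the KO lines on day 2. On day 3 *Cdx2* was at 7.30 in WT and 0.420, 0.494 and 1.88 in the KO lines. *Gcm1* was less than 2-fold apart from WT on both days, with 0.532 in WT and 0.463, 0.911 and 0.374 on day 3. *Elf5* was not above 0.0124 in any of these samples. The 3 endoderm markers summed to 4.62 in WT and to 0.181, 2.79 and 0.400 in the KO lines on day 3. Of these *Foxa2* alone was at 4.50 in WT and 0.0757, 2.77 and 0.299 in the KO lines. *Sox17* and *Sox7* were not above 0.0812 in any of these day 3 samples. Whether these differences in cell make-up have a part in the ligand values was not tested.

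Other genes of the WNT pathway were counted in a list of 65 covering secretion, receptors, secreted inhibitors, R-spondins, transducers and targets. Between 41 and 50 of them were above FPKM 1 in either group of a KO comparison, and the shares of all genes called lower and higher are given in brackets after each count. In *Smad4* KO cells 3 of 41 were lower and 3 higher on day 1 (2.41% and 2.36%), and a day later 10 of 45 were lower and 4 higher (3.21% and 2.56%). Among the F1G4 lines on day 2, 2 of 45 were lower and 5 higher in *Eomes* KO (4.17% and 3.35%), 1 of 44 lower and 8 higher in *T* KO (9.93% and 5.7%) and 2 of 44 lower and 2 higher in dKO (4.5% and 3.48%). On day 3, 11 of 49 were lower and 8 higher in *Eomes* KO (9.01% and 7.39%), 12 of 47 lower and none higher in *T* KO (3.92% and 2.12%) and 9 of 50 lower and 3 higher in dKO (5.53% and 5.51%). The counts of dKO on day 2 were thus near the shares over all genes. With a pseudocount of 0.1 the median log2 ratio of the 65 lay between −0.20 and 0.27 in the 8 comparisons, against −0.04 to 0.00 over all genes tested, the highest being that of *T* KO on day 2.

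Among the receptors, *Fzd10*, a Frizzled gene that rose in WT cells from 2.50 on day 1 to 21.2 on day 2, was lower in *Smad4* KO on day 1 (log2 −1.16) and day 2 (14.2 in WT and 1.39 in KO, log2 −3.36) and in *Eomes* KO (34.1 and 7.83, log2 −2.12) and dKO (34.0 and 15.1, log2 −1.17) on day 3, and higher in *T* KO on day 2 (21.9 and 46.5, log2 1.09). *Fzd7* was higher in *Smad4* KO on day 2 (21.9 and 46.5, log2 1.08), and *Fzd6* was higher in *T* KO on day 2 (log2 1.13). *Wls*, which carries WNT proteins to the cell surface, rose in WT cells from 0.534 in ES cells to 42.7 on day 3 and was not called in any KO comparison. The secreted inhibitor *Dkk1* was higher in dKO on day 3, at 18.3 against 9.01 (log2 1.03), and at lower levels it was higher in *T* KO on day 2 (log2 1.01) and lower in *Smad4* KO on day 1 (1.27 in WT and 0.0749 in KO). *Rspo3*, an R-spondin that amplifies WNT signals, was at 17.6 to 18.2 in WT and at 0.171, 0.0335 and 0.309 in the *Eomes* KO, the *T* KO and the dKO on day 3, and it was lower in *Smad4* KO on day 2 (2.31 and 0.278).

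Of 10 genes known as targets of β-catenin, 1 of the 5 above FPKM 1 was lower in *Smad4* KO on day 1 and 4 of 6 on day 2, and none was higher, against 2.41% and 3.21% of all genes lower. On day 2, 1 of 8 was lower and 2 higher in *Eomes* KO (4.17% and 3.35% of all genes), none of 7 lower and 3 higher in *T* KO (9.93% and 5.7%) and 2 of 8 lower and 2 higher in dKO (4.5% and 3.48%). *Cdx2*, at lower levels, had day 2 log2 ratios of 2.58, 2.57 and 2.59 in these lines against the same WT column. On day 3, 5 of 9 were lower and 1 higher in *Eomes* KO (9.01% and 7.39%), 7 of 8 lower and none higher in *T* KO (3.92% and 2.12%) and 4 of 9 lower and 1 higher in dKO (5.53% and 5.51%). *Axin2*, a feedback inhibitor induced by β-catenin in most tissues, stood at 11.2 in WT and 22.5 in *T* KO cells on day 2 (log2 1.00), but on day 3 at 13.6 and 6.45 (log2 −1.08). It was at 14.0 in WT on day 3 against 5.25 in *Eomes* KO (log2 −1.42) and 4.21 in dKO (log2 −1.73). It was also lower in dKO on day 2 (log2 −1.08) and in *Smad4* KO on day 2 (9.72 and 0.945, log2 −3.36). In dKO on day 2 the summed FPKM of the 10 ligands was 1.21 times that of WT cells (log2 0.28). On the TPM scale the median log2 ratio of all genes tested was −0.43 there, so the direction of that difference depended on the scale. *Sp5*, a zinc finger gene induced by β-catenin, had day 3 log2 ratios of −5.59, −2.09 and −4.42 in the *Eomes* KO, the *T* KO and the dKO, day 2 ratios of −1.87, 1.93 and −2.08 in the same lines, and one of −4.80 in *Smad4* KO on day 2. *Msgn1*, a gene of presomitic mesoderm, was at 21.8 to 22.5 in the WT columns of day 3 and listed at 0 in all 3 KO lines. Of the TCF/LEF genes, *Lef1* was higher in *Smad4* KO on day 1 (log2 1.40) and on day 2 in *Eomes* KO (log2 1.08) and *T* KO (3.78 and 13.4, log2 1.83), and lower on day 3 in *Eomes* KO (log2 −1.03), *T* KO (log2 −1.90) and dKO (log2 −1.16). *Tcf7* was lower on day 3 in *Eomes* KO (log2 −1.15) and in dKO (17.5 in WT and 8.71 in KO).

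The profiles of the ligands over the 14 conditions were compared by Pearson's r of log2(FPKM + 1). The conditions share lines, WT cells and a time course, so r is a description with 14 points and carries no p. *Wnt3* was most like *Wnt5b* among the members (r = 0.93) and less like *Wnt8a* (0.87) and *Wnt4* (0.41). *Wnt6* was most like *Wnt4* (0.89) and nearly as like *Wnt8a* (0.88) and *Wnt11* (0.80). *Wnt8a* was like both *Wnt6* and *Wnt3*, with 0.74 for *Wnt5b*, 0.69 for *Wnt4* and 0.41 for *Wnt7b*. *Wnt5b* was little like *Wnt4* (0.17) and *Wnt7b* (−0.07). Whether the ligands part into separate sets was not tested. *Wnt7b* was most like *Wnt4* (0.81), then *Wnt2b* (0.69) and *Wnt6* (0.65). The value of 0.89 for *Wnt3a* and *Wnt5a* rests on WT cells on day 3, where alone both were above 1.

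Among 7190 other genes that reached FPKM 10, the genes most like *Wnt3* were *Ppp4r4* (r = 0.95), *Nt5e* (0.95) and *Map3k15* (0.93). *Nt5e*, which encodes an ectonucleotidase, was also the gene most like *Wnt5b* (0.94), followed by the ephrin receptor *Epha1* (0.88) and the lipoxygenase *Alox15* (0.87). *Nt5e* FPKM was 0.623, 0.750, 19.9 and 40.4 over the WT stages and 1.99, 8.75 and 8.47 in the *Eomes* KO, the *T* KO and the dKO on day 3, which is the order of *Wnt3* except that *T* KO and dKO change places. *Chst15* (0.93) and *Tor2a* (0.92) were among the genes most like *Wnt8a*.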

How the data were processed

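RNA-seq values of mouse ES cells, WT and KO cells under Bmp4 were used as deposited. The authors computed the FPKM values with Cuffdiff 2.2.1 after trimming with cutadapt 2.9 and alignment with HISAT2 2.1.0 to mm10 (GRCm38), versions being those in the submitters' processing notes. Cuffdiff was run with its corrections for multi-mapped reads and for bias, and its effective length correction was off. The libraries, from total RNA, kept strand. Whether fragments were counted by strand is not given in the sources used here. The time course table held 4 rows with repeated names, which were left out.

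No replicate model or test was fitted, since each column pools its condition. Ratios were taken within a table, and a gene was called by the study's rule (FPKM above 1 in either group, log2 ratio above 1 or below −1). The tables were normalized separately, so KO levels of the F1G4 lines were divided by the factor of their WT column for display, and any level set across the *Smad4* line tables carries their separate normalization.

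All 10 ligand genes are named. Other *Wnt* genes are named where they reached FPKM 1 or lie beside a member, pathway genes where called and at FPKM 10 or more in either group, and like genes as the 3 with the highest Pearson r per ligand that reached FPKM 10. A like gene of *Wnt8a* is not reported here. A few called genes of the lists enter only counts. The members and lists were chosen with earlier results of these data known. Alternatives were no FPKM minimum or one of 5, pseudocounts of 0.1 and 1, columns rescaled to equal sums (TPM scale) or to a median ratio of 1, F1G4 WT cells as reference for *Smad4* KO, and sums over all 19 *Wnt* genes. Python 3.11.15, numpy 2.4.6, pandas 2.3.3 and matplotlib 3.10.9 were used, and the call step was tested on simulated data.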

Additional observations from a re-analysis of the deposited data

Results flagged for a closer look

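The ratio of KO to WT had opposite signs on days 2 and 3 for several ligands, with an FPKM above 1 in either group on both days and past the 2-fold threshold on at least 1 of them. With 1 value per condition, the difference between the days was not tested in any of these cases, and the 3 KO lines share their WT columns. In *Eomes* KO the log2 ratio of *Wnt4* went from −1.28 to 0.98 (a change of 2.26), that of *Wnt7b* from −2.35 to 0.27 (2.62) and that of *Wnt8a* from 0.54 to −1.08 (−1.62). In *T* KO *Wnt4* went from −1.20 to 0.31 (1.52) and *Wnt3* from 0.11 to −1.76 (−1.87). In dKO *Wnt4* went from −0.82 to 1.24 (2.06), *Wnt7b* from −1.54 to 0.09 (1.63) and *Wnt5b* from 0.13 to −2.79 (−2.92). On the TPM scale the day 2 value of *Wnt5b* in dKO was −0.28 and the day 3 value of *Wnt7b* in dKO −0.02, so that the signs were no longer opposite for these 2.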

How the results depend on the processing

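No paired analysis was possible because each column pools its condition, and for the same reason no replicate could be left out. A stricter minimum of FPKM 5 reduced the ligands called in every comparison: to 1 of 4 and 3 of 6 in *Smad4* KO on days 1 and 2, 0 of 2 and 3 of 5 in *Eomes* KO, 0 of 1 and 2 of 4 in *T* KO and 0 of 1 and 3 of 6 in dKO on days 2 and 3, and in WT cells to 0 of 3 for day 1 to ES, 3 of 6 for day 2 to day 1, 2 of 6 for day 3 to day 2 and 3 of 7 for day 3 to ES. By construction it leaves out the ligands at low FPKM. With no minimum, 4 were called in *Eomes* KO and 3 each in *T* KO and dKO on day 2, 7 for WT day 1 to ES and 10 for WT day 2 to day 1. The calls gained went both ways. In WT cells *Wnt3a* was lower on day 1 (−5.28) and *Wnt5a* (−2.72) and *Wnt2b* (−1.10) on day 2. On day 2 *Wnt5a* was higher in *Eomes* KO (2.39), *Wnt3a* in *T* KO (1.24) and *Wnt2b* in dKO (1.11). With a pseudocount of 1, 2 were called in *Smad4* KO on day 1 and 0 on day 2 in the other KO lines. On the TPM scale 3 each were called in *T* KO and dKO on day 2. That scale moved the median log2 ratio of all genes to −0.24 and 0.27 in *Eomes* KO, 0.12 on day 2 in *T* KO, −0.43 and −0.14 in dKO and 0.13 for WT day 3 to ES. It moved the share of lower among called genes from 55.5% to 72.9% and from 55% to 28% in *Eomes* KO on days 2 and 3, from 63.5% to 48% in *T* KO and from 56.4% to 87% in dKO on day 2. The cause was not tested. Against F1G4 WT cells 0 ligands were called in *Smad4* KO on day 1 and *Wnt4* turned to 0.19. Of single ligand ratios under the alternatives, 617 kept their status as called or not called. A further 49 lost their call, 35 gained one and 1, called before, reversed. As a call also asks for the FPKM minimum, it could be lost or gained with the ratio unchanged. A ratio below the minimum could likewise pass 2-fold and stay uncalled. Among the 617, 11 uncalled ratios changed sign. Those above FPKM 1 were *Wnt6* in *Eomes* KO on day 3 (−0.02 to 0.27 on the TPM scale and 0.04 at a median ratio of 1) and, on the TPM scale, *Wnt6* (0.28 to −0.12) and *Wnt5b* (0.13 to −0.28) in dKO on day 2 and *Wnt7b* in dKO on day 3 (0.09 to −0.02). The others were *Wnt5a* in dKO on day 2 and, against F1G4 WT cells, *Wnt5a*, *Wnt6* (−1.15 to 0.93) and *Wnt7b* on day 1 and *Wnt3a* and *Wnt5a* (−0.31 to 2.12) on day 2 in *Smad4* KO. The other 51 counts and shares stayed within 1.5 times, among them the 10 of 14 conditions in which *Wnt3* and *Wnt8a* made up over 50% of the sum when all 19 *Wnt* genes were included. Depth is unknown, so how far counting error limits the ligands below FPKM 1 cannot be given.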

Other observations

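Of the 9 other *Wnt* genes, *Wnt9a*, *Wnt7a* and *Wnt10b* passed FPKM 1 in at least 1 condition. *Wnt9a*, whose start site lies 16.2 kb from that of *Wnt3a* on chromosome 11, stood at 0.152, 0.219, 1.46 and 2.44 in WT ES cells and on days 1, 2 and 3. On day 3, when *Wnt3a* was below 0.07 in the KO lines, *Wnt9a* was at 2.35 in *Eomes* KO, 2.73 in *T* KO and 3.54 in dKO cells, so that the neighbouring genes differed in their ratio to WT. On day 2 its log2 ratio to the same WT column was −1.02 in *Eomes* KO, −2.32 in *T* KO and −1.26 in dKO cells, and it was called lower in each. *Wnt9b*, with a start site 24.4 kb from that of *Wnt3* and a predicted model that overlaps it on the opposite strand, did not pass 0.367 in any deposited column.

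In dKO cells on day 3, 2 further ligand genes were higher than in WT cells. *Wnt7a* stood at 5.06 against 0.881 in WT cells (log2 2.52), and *Wnt10b* at 2.13 against 0.400 (log2 2.42). In *Eomes* KO cells *Wnt7a* was at 0.889 and *Wnt10b* at 1.09 (log2 1.45), and in *T* KO cells they were at 0.842 and 0.642, so neither single KO reached the dKO level of *Wnt7a*. With these genes the sum of all 19 *Wnt* genes was 84.9 in dKO and 106 in WT cells on day 3.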
